A study of Mus musculus with 8 samples.

Results

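The Sall family comprises 4 genes in the mouse, Sall1, Sall2, Sall3 and Sall4, and the binding of 4 reprogramming factors around them was read from 8 lists of CUT&Tag peaks. A peak was taken as a member when its summit, the position with the highest tag pile-up, lay in the gene body or within 100 kb of the first annotated start site. By this rule, 190 of 661009 peaks belonged to the family: 11 at Sall1, 63 at Sall2, 55 at Sall3 and 61 at Sall4. The rule itself used no measured height, score or difference, but the family was chosen with earlier results of these data known.

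SALL proteins are zinc-finger transcription factors related to Drosophila spalt. They carry a short N-terminal motif that recruits the NuRD complex, which combines nucleosome remodelling with histone deacetylation. SALL4 belongs to the transcription factor network of pluripotent cells and is low in fibroblasts. SALL1 is known for its role in kidney development, SALL2 for its expression in the nervous system, and SALL3 for a role in palate and cranial nerve development.

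In CUT&Tag, Tn5 transposase is guided by an antibody and inserts sequencing adapters into the DNA beside the bound protein. The antibody recognised the Flag tag, and the cells were fibroblasts of mouse embryos (MEFs) collected at day 3 of reprogramming. The 8 libraries are named Nanog, NanogBiD, Oct4, Oct4BiD, Sox2, Sox2BiD, Nr5a2 and Nr5a2BiD, with 1 library in each group. Native factors are compared with BiD fusions, in which the domain of SS18 that contacts the BAF ATPase BRG1 precedes the factor. Per the study's methods, all MEFs carried the Oct4-GFP reporter (OG2), came from mid-gestation embryos and received factors from pMXs retroviruses in iCD3 medium. The titles do not say which untagged factors were delivered together with each tagged one.

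The lists held between 54794 peaks (Oct4) and 120594 peaks (Sox2BiD), with median summit heights between 16 and 22 tags. Heights are whole tags that were not scaled to depth, and the lists themselves hold no read totals. The study's reporting summary lists read pairs per library, which are not used here as values. By that list, total and uniquely mapped pairs were higher in Sox2 than in Sox2BiD, in Oct4 than in Oct4BiD, in Nr5a2BiD than in Nr5a2 and in NanogBiD than in Nanog. Peak numbers ran the other way for all factors but Nanog. The score of a peak is 10 times the negative log10 of its p-value from the peak caller, and ranks below are ranks of this score within a library. Of 9 fibroblast genes checked, 9 had a summit within 2 kb of a start site in 7 libraries, and 5 did so in native Sox2. Of 8 pluripotency genes, between 0 and 2 had one in any library. The share of all genes with such a summit ran from 25.4% in Sox2 to 64.0% in Nr5a2. These counts describe binding and not expression. As a check of the labels, coding exons of the delivered genes held summits in their own libraries: 2 on Nanog in Nanog and in NanogBiD, 1 on Sox2 in Sox2 and in Sox2BiD, and 3 and 4 on Nr5a2 in Nr5a2 and Nr5a2BiD. Pou5f1, the gene of Oct4, had none in any library, and Nanog had 1 in Oct4BiD.

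Before the values, the sequences around summits with a match to the consensus of the tagged factor itself are shown for Sall1, Sall2 and Sall4. The consensus searched was CAAGGTCA or CAAGGCCA for NR5A and ATGCAAAT for the octamer bound by Oct4, on both strands and within 50 bp of the summit. Each line gives the plus strand of mm10, 5′ to 3′, over 101 bases centred on the summit, with every match in capitals. The Nr5a2BiD site 88.2 kb downstream of the Sall1 start site is chr8:88955932-88956032. At Sall2, the Nr5a2 site in a Chd8 intron 79.6 kb downstream is chr14:52249152-52249252, and the Oct4BiD site 8.61 kb upstream is chr14:52337325-52337425. At Sall4, 3 Nr5a2 sites are shown, at chr2:168711091-168711191 (56.8 kb downstream), chr2:168726233-168726333 (41.7 kb downstream) and chr2:168862337-168862437 (94.4 kb upstream). The first of these had 3 matches within the window, and the others had 1 each.
Sall1 Nr5a2BiD downstream: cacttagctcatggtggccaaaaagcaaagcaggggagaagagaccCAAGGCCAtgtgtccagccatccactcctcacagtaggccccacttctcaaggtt
Sall2 Nr5a2 downstream: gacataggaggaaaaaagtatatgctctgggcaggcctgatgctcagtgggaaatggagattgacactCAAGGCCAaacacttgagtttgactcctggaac
Sall2 Oct4BiD upstream: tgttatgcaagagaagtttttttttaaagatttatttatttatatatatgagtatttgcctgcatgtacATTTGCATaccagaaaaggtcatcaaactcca
Sall4 Nr5a2 downstream, several matches: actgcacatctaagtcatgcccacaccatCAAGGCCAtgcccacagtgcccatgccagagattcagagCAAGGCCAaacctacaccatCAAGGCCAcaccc
Sall4 Nr5a2 downstream, highest summit: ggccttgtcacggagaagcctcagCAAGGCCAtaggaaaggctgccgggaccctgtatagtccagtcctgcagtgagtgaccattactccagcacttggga
Sall4 Nr5a2 upstream: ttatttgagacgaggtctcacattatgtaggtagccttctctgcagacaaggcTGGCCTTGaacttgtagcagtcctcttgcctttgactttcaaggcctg

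**Figure D1:**
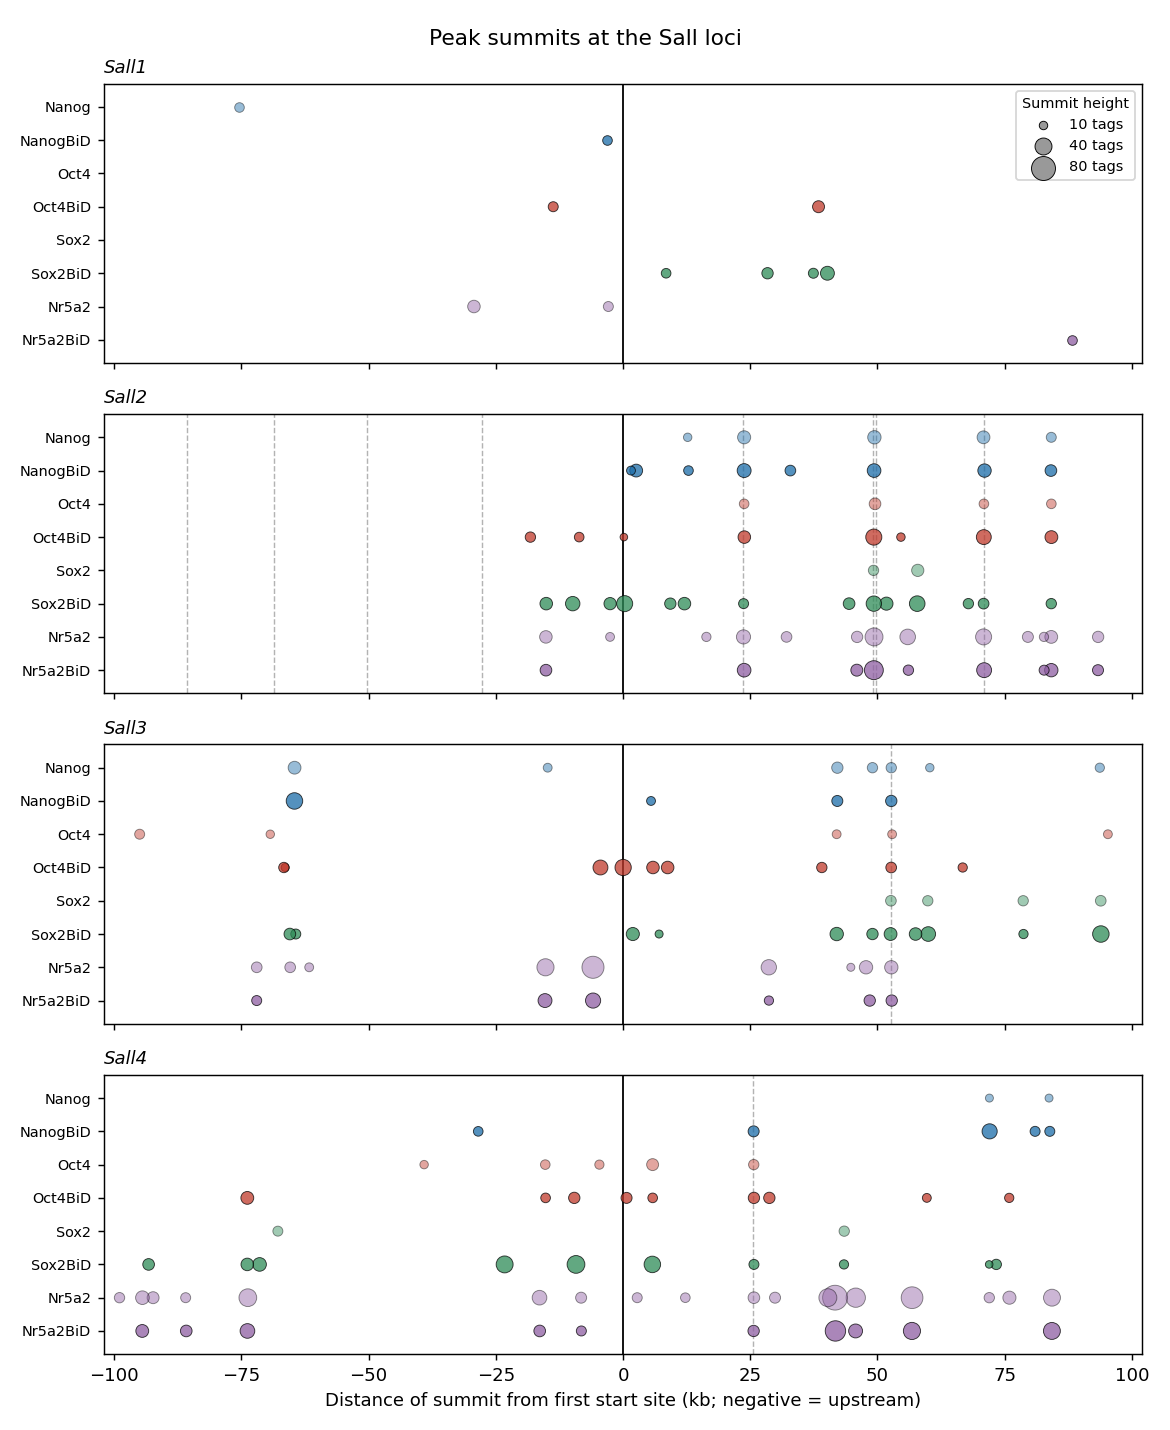
Peak summits at each Sall gene, by distance from the first start site (kb, horizontal; negative is upstream in the direction of transcription) and library (vertical). Circle area is proportional to summit height in tags, colours mark the factor, the solid line is the first start site and dashed lines are start sites of other protein-coding genes. Sall1 holds 11 scattered summits, whereas Sall2, Sall3 and Sall4 show columns of summits from several libraries, most of all at the dashed lines downstream.

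Sall1 (ENSMUSG00000031665.7, chr8:89027235-89044162, minus strand) had the fewest summits of the family. It had 1 summit in Nanog, 1 in NanogBiD, 0 in Oct4, 2 in Oct4BiD, 0 in Sox2, 4 in Sox2BiD, 2 in Nr5a2 and 1 in Nr5a2BiD. The total of 11 compares with a median of 76 over 21728 protein-coding genes, and 11.2% of genes had as few or fewer. No other protein-coding gene starts in the Sall1 window. None of the 8 libraries had a summit within 2 kb of a Sall1 start site, and 1 of the 11 summits (Sox2BiD, 13 tags) lay in the gene, in an intron.

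The Sall1 summits were low, with a median height of 14.0 tags. None was in the top 10% of its library by score, and 7 of 11 ranked below the median score of their list. The highest was a Sox2BiD summit of 27 tags, 40.2 kb downstream. An Oct4BiD summit of 20 tags lay 38.4 kb downstream, in a separate region. Only 1 of the 10 merged regions held peaks of more than 1 library: Nr5a2 (14 tags) 2.88 kb upstream and NanogBiD (13 tags) 3.07 kb upstream.

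Sall2 (ENSMUSG00000049532.11, chr14:52311172-52328762, minus strand) lies in the most gene-rich of the 4 windows. It had 5 summits in Nanog, 8 in NanogBiD, 4 in Oct4, 8 in Oct4BiD, 2 in Sox2, 14 in Sox2BiD, 13 in Nr5a2 and 9 in Nr5a2BiD. The total was 63, and 37.2% of genes had as many or fewer. Of these 63 summits, 38 (60.3%) lay within 2 kb of a start site of another protein-coding gene, against 14.5% at Sall3 and 13.1% at Sall4.

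The recurrent Sall2 sites were at the start sites of its downstream neighbours. Rab2b, a small GTPase gene, and Tox4, an HMG-box gene, start close to each other 49.2 and 49.6 kb downstream, and their region was the only one in this window with a peak in all 8 libraries. Its heights were 25 in Nanog, 26 in NanogBiD, 19 in Oct4, 36 in Oct4BiD, 15 in Sox2, 33 in Sox2BiD, 45 in Nr5a2 and 50 tags in Nr5a2BiD. All libraries but native Sox2 also had a peak at Mettl3, which encodes an RNA methyltransferase (13 to 28 tags), at the start of Chd8, a chromatin remodeller gene (13 to 36 tags), and at an alternative Chd8 start 84.1 kb downstream (13 to 25 tags). The 4 olfactory receptor genes that start upstream of Sall2 had no summit within 2 kb in any library.

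Of the 6 summits within 2 kb of a start site of Sall2 itself, 5 came from BiD libraries, as did 39 of all 63 summits in the window. The 2 shares were not tested against each other. Around the first start site, Sox2BiD had a summit of 36 tags 0.321 kb inside the gene and Oct4BiD one of 8 tags at 0.168 kb. NanogBiD had summits of 11 tags at 1.57 kb and 23 tags at 2.59 kb. The internal start site about 12 kb further had 10 tags in Nanog, 13 in NanogBiD and 22 in Sox2BiD, and the native Nanog summit fell in a coding exon. Upstream of the gene, a region 15.1 kb away had peaks of Sox2BiD (22 tags), Nr5a2 (22 tags) and Nr5a2BiD (19 tags).

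Sall3 (ENSMUSG00000024565.9, chr18:80966376-80986771, minus strand) had 7 summits in Nanog, 4 in NanogBiD, 5 in Oct4, 9 in Oct4BiD, 4 in Sox2, 11 in Sox2BiD, 9 in Nr5a2 and 6 in Nr5a2BiD. Its total of 55 ranked above or level with 30.7% of genes. It was the only member with fewer summits in NanogBiD than in Nanog, which held for 21.4% of all genes.

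The strongest summit of the whole family by score was at Sall3. It was a native Nr5a2 summit 5.90 kb upstream of the start site, with 68 tags and a score of 832, which placed it in the top 0.484% of that library. Nr5a2BiD had 32 tags at the same region, in the top 6.21%, and the other 6 libraries had no peak there. A further Nr5a2 site 15.2 kb upstream had 41 tags in Nr5a2, 27 in Nr5a2BiD and 11 in Nanog.

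Oct4BiD had 4 summits in or close to the Sall3 gene itself. Its summit at the first start site (0.022 kb inside the gene) had 37 tags, and 3 more lay 4.43 kb upstream (31 tags) and 5.89 and 8.77 kb into the gene (22 tags each). Native Oct4 had no peak in these regions, and the region 5.89 kb into the gene also held NanogBiD (11 tags) and Sox2BiD (9 tags). An octamer match lay within 50 bp of 3 of these 4 summits, which were chosen after their values were seen. The share over all Oct4BiD summits was 9.72%. The start site was otherwise reached only by Sox2BiD, with 24 tags at 1.92 kb. Far upstream, 64.5 kb from the start site, NanogBiD had 38 tags, in the top 4.05% of its library, and Nanog had 23 tags. Sox2BiD (14 and 19 tags) and Nr5a2 (16 tags) had lower summits in the same region.

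Downstream of Sall3, recurrence again followed a neighbour. The start site of Atp9b, which encodes a putative lipid flippase, lies 52.7 kb downstream and had a peak in all 8 libraries, with heights of 15 in Nanog, 18 in NanogBiD, 11 in Oct4, 16 in Oct4BiD, 16 in Sox2, 23 in Sox2BiD, 25 in Nr5a2 and 18 tags in Nr5a2BiD. Sox2BiD was the highest at 2 sites inside Atp9b, with 38 tags against 16 in Sox2 at 93.9 kb and 30 against 15 at 59.9 kb. Each of these sites also had a native Nanog peak, of 12 and 10 tags.

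Sall4 (ENSMUSG00000027547.17, chr2:168748332-168767943, minus strand) had 2 summits in Nanog, 5 in NanogBiD, 5 in Oct4, 9 in Oct4BiD, 2 in Sox2, 10 in Sox2BiD, 18 in Nr5a2 and 10 in Nr5a2BiD. The total of 61 was at or above that of 35.5% of genes. Native Nr5a2 ranked highest within the member: 65.1% of genes had as few or fewer summits in that library. Nr5a2BiD came next with 54.5%, and Nanog was lowest with 18.7%. Sall4 was the only member above the median of all genes in native Nr5a2, with 18 summits against 15.

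The highest summit of the family was an Nr5a2 summit in an intron of Atp9a, downstream of Sall4, and other high Nr5a2 summits lay in the same introns. The highest had 86 tags in Nr5a2 and 58 in Nr5a2BiD, 41.7 kb from the Sall4 start site. The site with 3 NR5A matches shown above had 66 tags in Nr5a2 and 41 in Nr5a2BiD. Sites at 45.7 kb (52 and 27 tags) and 84.3 kb (40 tags in each form) followed. An Nr5a2 summit of 45 tags at 40.3 kb had no Nr5a2BiD peak. These heights were not matched by scores: the 86-tag summit was in the top 8.44% of its library by score, behind the 68-tag Sall3 summit.

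The 3 highest Sox2BiD summits at Sall4 lay closer to its start site than the high Nr5a2 summits in Atp9a. Other Sox2BiD summits lay up to 93.2 kb away, and a lower Nr5a2 summit (14 tags) lay 2.79 kb into the gene. Of the 3, Sox2BiD had 44 tags 9.24 kb upstream, where Oct4BiD had 18, and 40 tags 23.3 kb upstream, where no other library had a peak. A region in a Sall4 intron, 5.76 kb into the gene, had 38 tags in Sox2BiD, 20 in Oct4 and 13 in Oct4BiD. Native Sox2 had no peak at any of these 3 sites. Its 2 summits in the window had 15 tags (43.5 kb downstream) and 14 tags (67.8 kb upstream).

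At the Sall4 start sites, Oct4BiD had 17 tags 0.693 kb into the gene, and Nr5a2 had 14 and 13 tags at internal start sites. The 13-tag summit fell in a Sall4 coding exon. Nanog and NanogBiD shared a site 72.0 kb downstream with 9 tags in Nanog and 32 in NanogBiD, where Nr5a2 (15 tags) and Sox2BiD (8 tags) also had peaks. A weaker one at 83.7 kb, with 9 and 14 tags, was in the same merged region as the Nr5a2 and Nr5a2BiD site at 84.3 kb. The site in the most libraries, with 14 to 19 tags in 6 of them, was again at the start site of a neighbour, Atp9a. The only distal site outside a gene with 4 libraries lay 73.7 kb upstream: Nr5a2 had 44 tags, Nr5a2BiD 30, Oct4BiD 23 and Sox2BiD 22.

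**Figure D2:**
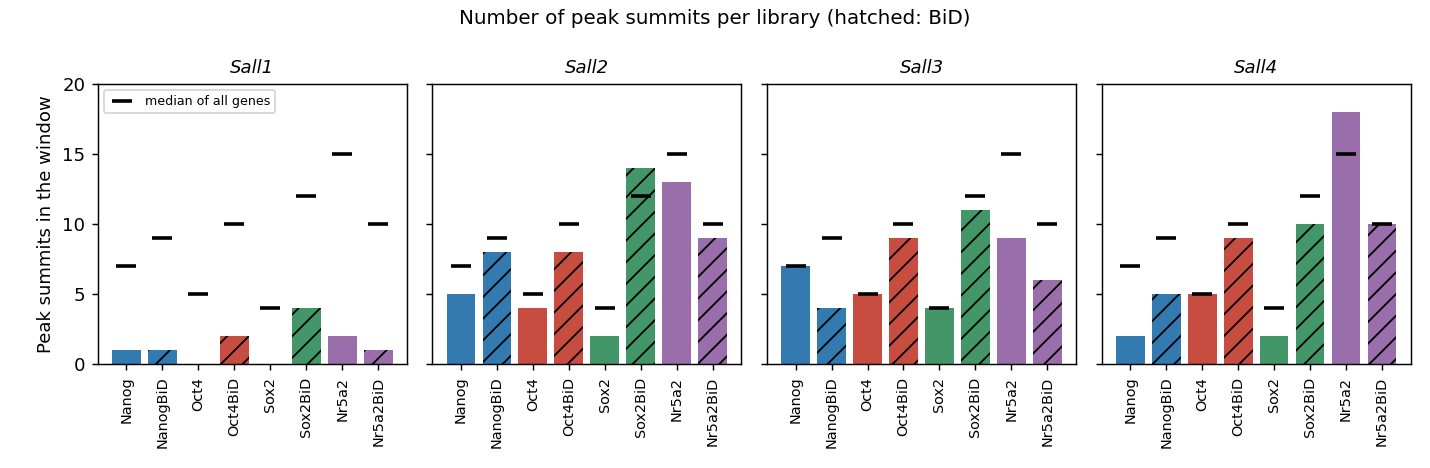
Number of peak summits in the window of each Sall gene (vertical) in each library (horizontal), with BiD fusions hatched; black marks are the median over 21728 protein-coding genes in that library. All Sall1 bars lie below the marks, and Sall4 in native Nr5a2 (18 against 15) and Sall2 in Sox2BiD (14 against 12) are the bars above them.

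At least 1 summit in every library was found for 3 of the 4 members, all but Sall1, and for 81.6% of all genes. No member had a summit within 2 kb of its own start sites in all 8 libraries, against 17.4% of genes. Sall2, Sall3 and Sall4 had one in at least 1 library, against 76.3% of genes. Per library, Oct4BiD had one at 3 of 4 members (56.4% of all genes) and Sox2BiD at 2 of 4 (53.8%). Nanog (51.6%), NanogBiD (55%) and Nr5a2 (64.0%) had one at 1 member each, and Oct4 (39.3%), Sox2 (25.4%) and Nr5a2BiD (54.4%) at 0. The windows differ in gene content, and these shares describe the members only.

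Of the 190 summits, 83 were intergenic, 68 intronic, 21 in UTRs, 16 in coding exons and 2 in non-coding exons, and 22 lay in the Sall genes themselves. Heights ranged from 8 to 86 tags with a median of 18.0. By score, 18 of the 190 summits were in the top 10% of their library, which by definition holds 10% of its summits. Of these, 9 were at Sall2, 5 at Sall3 and 4 at Sall4. All 9 in the Sall2 window lay at start sites of its neighbours Chd8, Rab2b with Tox4, or Mettl3, and not in Sall2 itself.

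When peaks that overlapped by at least 1 bp were merged, the 190 summits formed 97 regions. A peak in 1 library only was found in 55 regions (56.7%), against 46.0% of all 306466 merged regions of the genome. Regions in all 8 libraries numbered 2 (2.06%, against 1.49% of all regions), and regions in at least 6 libraries numbered 6 (6.19%, against 5.7%). All 6 lay at start sites of other genes, 4 in the Sall2 window, 1 in that of Sall3 and 1 in that of Sall4. Of the 23 regions in exactly 2 libraries, 18 held both forms of 1 factor (78.3%, against 84.3% of such regions genome-wide). Of the 18, 14 were Nr5a2 with Nr5a2BiD, and the genome-wide share of that pair among such regions was not counted. Over the genome and any number of libraries, Nr5a2 also had the most regions shared by both forms, 64503 against 52445 for Nanog, 49469 for Sox2 and 39575 for Oct4.

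**Figure D3:**
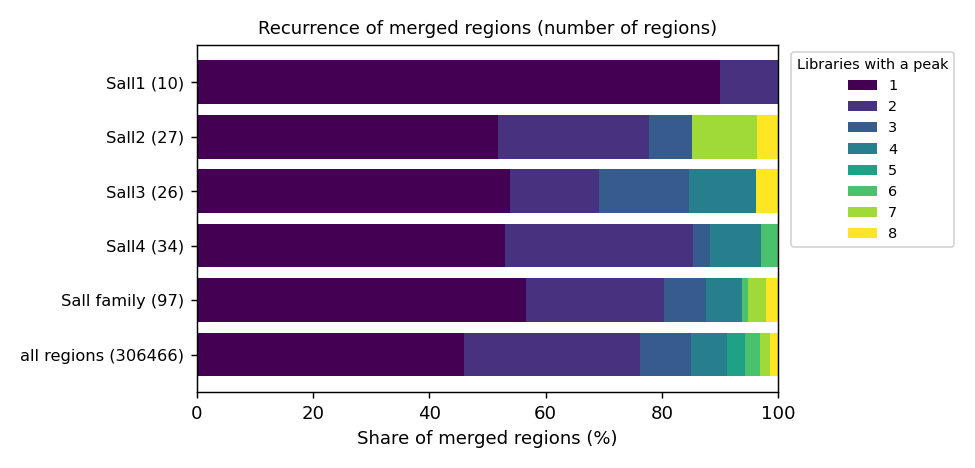
Share of merged regions (%, horizontal) by the number of libraries with a peak (colour), for each Sall gene, the family and all merged regions; the number of regions is in brackets. Sall1 consists almost entirely of regions in 1 library (9 of 10), and the family has 56.7% of such regions against 46.0% of all regions.

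Native and fused forms were then compared within each factor at the Sall regions. Nanog had 15 regions, NanogBiD 18, and 10 were shared. These were 66.7% of the Nanog and 55.6% of the NanogBiD regions, against 72.9% and 70.4% over the genome. Oct4 had 14, Oct4BiD 28, and 8 were shared, which is 57.1% and 28.6% (73.4% and 42.8% over the genome). Sox2 had 8, Sox2BiD 38, and 7 were shared, which is 87.5% and 18.4% (86.4% and 41.9% over the genome). The Nr5a2 libraries went the other way, with 42 regions for Nr5a2, 26 for Nr5a2BiD and 25 shared, which is 59.5% and 96.2% (60.9% and 86.3% over the genome). Among the BiD lists, the factors stood in the same order at the members as over the genome, and the differences between members and genome were not tested.

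Where both forms had a peak, the native summit was the higher one in 1 of 10 regions for Nanog, against 29.3% of shared regions over the genome. For Oct4 it was 1 of 8 (26.0% genome-wide), and for Sox2 it was 2 of 7 (28.9% genome-wide). For Nr5a2, in contrast, the native summit was higher in 19 of 25 regions, equal in 1 and lower in 5, with a genome-wide share of 64.0%. These were 8 of 10 shared regions at Sall4, 6 of 6 at Sall3 and 5 of 9 at Sall2. The median summit height over the whole lists was 21 tags in both Nr5a2 libraries. It was 16 in Nanog and 20 in NanogBiD, 17 in Oct4 and 19 in Oct4BiD, and 22 in Sox2 and 21 in Sox2BiD. The form with the higher summits at most shared regions was the one with fewer listed read pairs for Nr5a2, Oct4 and Sox2, and the one with more for Nanog.

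**Figure D4:**
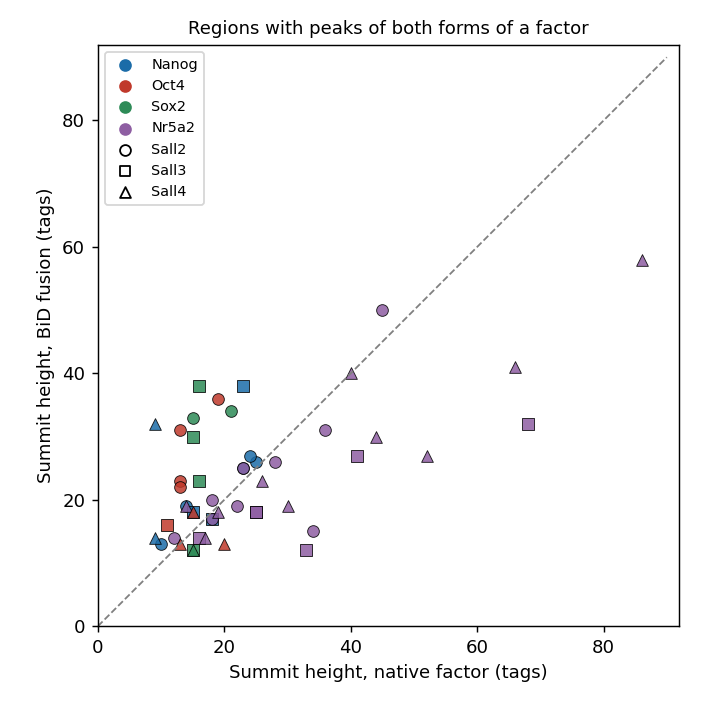
Summit height in the native library (tags, horizontal) against that in the BiD library of the same factor (tags, vertical) for each region at a Sall gene with peaks of both forms; colours mark factors, shapes mark genes and the dashed line is equality. Nr5a2 regions lie mostly below the line (19 of 25), including the 3 highest native summits, and most Nanog, Oct4 and Sox2 regions lie above it.

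The Oct4BiD and Sox2BiD libraries had more summits than the native ones at 4 of 4 members each, as at 82.9% and 89.1% of all genes, and fewer at 0 (4.63% and 1.69% of genes). NanogBiD had more at 2 members, Sall2 and Sall4 (53.6% of genes), and fewer at 1, Sall3 (21.4% of genes). Nr5a2BiD had fewer at 4 of 4 members (82.0% of genes) and more at 0 (4.22% of genes). Apart from Nanog at Sall1 (1 summit in each form) and Sall3, these directions are those of the libraries' total peak numbers.

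To ask whether the BiD fusions as a class had more or fewer summits at a member, summit counts were divided by the peaks of each library and log2 ratios of BiD to native were taken for each factor, with 0.5 added to each count. For Sall1 the log2 ratios were -0.04 (Nanog), 1.54 (Oct4), 2.12 (Sox2) and -0.23 (Nr5a2). Those of Sall2 were 0.58, 0.14, 1.48 and -0.00 in the same order. Sall3 had -0.78, 0.01, 0.30 and -0.04, and Sall4 had 1.09, 0.01, 1.02 and -0.31. Sox2 gave the highest ratio of the 4 factors at Sall1, Sall2 and Sall3, and Nanog did so at Sall4.

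Averaged over the factors, log2 ratios were 0.85 ± 1.16 for Sall1 (SD, n = 4), 0.55 ± 0.67 for Sall2, -0.13 ± 0.46 for Sall3 and 0.45 ± 0.71 for Sall4. The median over all 19653 genes tested was 0.12. The exact two-sided sign-flip permutation test gave p = 0.5, 0.25, 0.75 and 0.375 for Sall1 to Sall4, and adjusted p of 0.894, 0.836, 0.958 and 0.860. With 4 factors the smallest p is 0.125, so this design cannot reach the threshold, and 0.0% of all genes were called, with 0 genes also at an unadjusted p under 0.05. Each mean ratio was smaller than 1 SD over the factors. The direction for Sall3 depended on the window, the peak filter and the scaling. With summits at other start sites left out, the mean for Sall2 was 1.46 in place of 0.55. All native Oct4 and native Sox2 summits at Sall2 were left out by this, so those ratios then rest on the 0.5 added to each count. The removal was made for the members only, and the median of 0.12 over all genes was taken without it.

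For single factors, which have no replicate, a 2-fold change in summits per 10000 peaks was used as a description, with 0.5 added to each count. For Nanog, 1 of 4 members (Sall4) had at least 2-fold more in the BiD library, against 3.63% of genes, resting on 2 and 5 summits. For Oct4, 1 (Sall1) did so against 6.95%, resting on 0 and 2 summits. For Sox2, 3 (Sall1, Sall2 and Sall4) did so against 17.3%, and for Nr5a2 0 against 1.16%. Native Sox2 had only 0, 2 and 2 summits at Sall1, Sall2 and Sall4, against 4, 14 and 10 in Sox2BiD. No member had 2-fold fewer in any BiD library (3.03%, 3.48%, 3.37% and 2.51% of genes in the same order).

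The consensus of the tagged factor was present within 50 bp of 17 of the 190 summits. NR5A matches were found at 12 of 68 Nr5a2 and Nr5a2BiD summits, against 14.8% of all summits in those libraries, and 7 of the 12 were at Sall4. Sall4 also held the most summits of these libraries, 18 in Nr5a2 and 10 in Nr5a2BiD. Its regions 56.8 kb downstream and 94.4 kb upstream each gave 2 of the 7, 1 per form. Octamer matches were found at 4 of 42 Oct4 and Oct4BiD summits (7.67% of all), all 4 in Oct4BiD and 3 of them at Sall3. NANOG matches (GCCATTA) were found at 1 of 33 (2.13% of all), and SOX matches (CCATTGTT) at 0 of 47 (2.84% of all). The 3 strong Sox2BiD summits near Sall4 had none of these letters in the window, nor had the 68-tag Nr5a2 summit at Sall3, although the Nr5a2BiD summit beside it had an NR5A match.

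The subunits of NuRD, the complex that SALL proteins recruit, were examined as a pathway list of 15 genes. All 15 had a summit in the window in all 8 libraries (81.6% of all genes), and 8 had one within 2 kb of a start site in all 8 (17.4% of all genes). Their median total was 96.0 summits, against 58.0 for the 4 Sall genes and 76 for all genes. In Sox2BiD 5 of 15 had at least 2-fold more summits per 10000 peaks than in Sox2 (17.3% of all genes), and 0 did so in the other 3 BiD libraries. The test could call no member of the list, since this design cannot reach the threshold, and 0.0% of all genes were called. The deacetylase gene Hdac1 had the highest mean log2 ratio, 0.51, and Hdac2 the lowest, -0.17.

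As a description of likeness, summit counts per 10000 peaks of each member were correlated with those of all other genes over the 8 libraries, which all genes share. The most similar genes were Gm10300 (Pearson r = 0.946), Rdm1 (0.944) and Rnf24 (0.942) for Sall1. For Sall2 they were Rbbp7 (0.991), Dcun1d4 (0.980) and Fam180a (0.979). Those for Sall3 were Stpg2 (0.924), Hdx (0.920) and 2310002L09Rik (0.908), and those for Sall4 were Slc24a4 (0.989), Erh (0.988) and Slc39a9 (0.988). Erh and Slc39a9 had identical counts in all 8 libraries and are not separate matches. The values for Sall1 rest on 0 to 4 summits per library. A correlation over 0.9 was found for 6 genes with Sall1, 213 with Sall2, 3 with Sall3 and 867 with Sall4, so the names for Sall2 and Sall4 are the top of long lists.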

How the data were processed

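Flag CUT&Tag was analysed for 8 libraries, grouped by title. By the authors' own account, adapters were trimmed (Trim Galore 0.6.4), reads were aligned to mm10 (Bowtie2 2.4.5), repetitive, mitochondrial and poorly mapped reads (quality under 30) were dropped (SAMtools 1.16.1), replicates were merged, and MACS 1.4.2 called peaks with 1 tag per position, no model and shift size 25. The study's reporting summary says that the experiment was done a single time without biological replicates, so each list is taken as 1 library. No control library is named. The labels and the methods name different kits. The deposited score is the authors' 10 times −log10 of the MACS p-value, and summit height, as deposited, is a pile-up signal in whole tags. Reads in repeats were lost. The lists hold no read totals, so no counting interval is given and values were not scaled to depth.

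Gene models were GENCODE M21, and sequence was read from GRCm38 (mm10) as supplied by RefSeq. Summits were counted for 21728 protein-coding genes of chromosomes 1 to 19 and X in the window of the gene body and 100 kb around the first start site. Ratios were tested for 19653 genes with at least 8 summits by flipping the signs of the 4 factors in every way (exact permutation test, two-sided) with Benjamini-Hochberg adjustment; the test was checked on simulated data. Factors pair the libraries by their names, and the alternative without pairing used all 70 splits. The genes and regions named were the members, neighbours starting in a window, regions in at least 6 libraries, the highest-scoring summits, regions with own motifs, the NuRD subunits with the highest and lowest ratio, and the 3 most alike genes. Other sites were chosen after their values were seen. Members and lists were chosen with earlier results of these data known. Sequences at Sall3 are not shown. The alternatives were peak filters, windows, scaling, pseudocount, merging and leaving out a factor. Python 3.11.15, NumPy 2.4.6, pandas 2.3.3, pysam 0.24.0 and matplotlib 3.10.9 were used.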

Additional observations from a re-analysis of the deposited data

Results flagged for a closer look

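At 3 members, the factors did not all move in the same direction; at Sall2 the ratio for Nr5a2 was -0.00 and the others were above 0. The difference between factors was not tested, since each factor has 1 library of each form. At Sall1, the log2 ratio of BiD to native summits per library peak was -0.23 for Nr5a2, with -0.04 for Nanog and above 0 for Oct4 and Sox2. At Sall3, it was -0.78 for Nanog (7 summits in Nanog and 4 in NanogBiD), -0.04 for Nr5a2 and above 0 for Oct4 and Sox2. At Sall4, it was -0.31 for Nr5a2 (18 and 10 summits) and above 0 for the other 3 factors.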

How the results depend on the processing

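No member passed the test in any alternative in which it was tested (lowest adjusted p 0.699), and Sall2 kept its direction in all 16 alternatives. A member with fewer than 8 summits was not tested, and its mean is a description only. For Sall1 this held with scores of at least 100, at least 20 tags, the 20000 highest-scoring peaks and the gene body with 5 kb. For Sall3 it held in the 20000 highest-scoring peaks and the gene body, and for Sall4 in the gene body. Leaving out the filter on genes or the pairing by factor cannot change the mean, so those alternatives could not reverse a direction. Taking the start site of coding transcripts also left the mean of every member unchanged. Sall1 reversed to -0.13 with summits of at least 20 tags, and Sall4 to -0.53 in the gene body with 5 kb. Sall3 reversed to 0.51 with scores of at least 100, 0.91 with at least 20 tags, 0.028 in the 20000 highest-scoring peaks, 0.72 within 50 kb, 1.43 in the gene body with 5 kb, 0.21 unscaled and 0.089 without Nanog; the cause was not tested. Leaving out 1 factor gave 0.42 to 1.21 for Sall1, 0.24 to 0.74 for Sall2, -0.27 to 0.089 for Sall3 and 0.24 to 0.71 for Sall4, where the smallest possible p is 0.25. Without pairing by factor (no replicate block), p was 0.171, 0.171, 0.6 and 0.457, with adjusted p of 1.0. Without scaling, the median over all genes moved from 0.12 to 0.47.

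Summit totals fell with scores of at least 100 to 5 at Sall1, 30 at Sall3 and 31 at Sall4, and within 50 kb to 37 at Sall2, 24 at Sall3 and 33 at Sall4. In the gene body with 5 kb they were 3, 11, 7 and 7 for Sall1 to Sall4. Without summits at other start sites, an alternative chosen after seeing the data, Sall2 had 25. Of the 97 regions, 56 remained with scores of at least 100 (32 in 1 library, 1 in all 8), and 19 formed from the 20000 highest-scoring peaks (10 in 1 library, 1 in at least 6, 0 in all 8). Heights and counts were compared between libraries without scaling to read depth.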
